A study of Mus musculus with 6 samples.

Results

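Integrins and laminins were examined in the somatosensory cortex of adult mice, as the 37 genes whose symbols begin with Itga, Itgb, Lama, Lamb or Lamc and belong to these families, out of 21667 named genes. They comprised 18 integrin alpha, 8 integrin beta, 5 laminin alpha, 3 laminin beta and 3 laminin gamma genes. They were taken by a rule on the symbol, which was set with earlier results of these data known. RNA-Seq of polyA RNA had been made from 3 control mice (Mef2cfl/fl) and 3 *Mef2c* cKO mice (Mef2cfl/fl; *Emx1*-Cre), all male and on a mixed SVeV-129 and C57BL/6J background. Both genotypes carry the floxed *Mef2c* alleles, so the groups differ by Cre, which is expressed from the *Emx1* gene and acts in the *Emx1* lineage of the dorsal forebrain, that is in cortical excitatory neurons and part of the glia, from before birth. Replicate 1 of each genotype was 14 weeks old and replicates 2 and 3 were 12 weeks old. The question was which of these adhesion and matrix genes differed between the genotypes, and by how much.

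Integrins are receptors made of 1 alpha and 1 beta chain that span the cell membrane and tie the extracellular matrix to the cytoskeleton. Which chains pair sets which matrix proteins are bound. Laminins are large secreted trimers of an alpha, a beta and a gamma chain, the main building blocks of basement membranes, and in the cortex they lie around blood vessels and under the pial surface, where radial glia and astrocytes attach to them through integrins and dystroglycan. Integrins are also found at synapses, and alphav integrins with beta8 release active TGF-beta from its latent complex.

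The libraries held 19326365 to 54128334 reads on genes, with *Mef2c* cKO replicate 2 the shallowest. The deposited RPKM values used lengths that differed between mice for the same gene, so whole read counts were recovered and expressed as CPM, the count of a gene scaled by the reads of its library. On this scale pairs of mice of the same genotype had a Pearson's r of 0.992 to 0.995 across genes and pairs of different genotypes one of 0.978 to 0.981, genes not being independent replicates. *Mef2c*, the targeted gene, was at 800, 772 and 800 CPM in the controls and at 1231, 1276 and 1468 CPM in the cKO mice. The transcript was higher in every cKO mouse. The count covers the whole gene and not the floxed part alone, so it does not check the deletion, and the genotypes rest on the sample labels. Cortical markers were present in every mouse, with *Slc17a7*, the vesicular glutamate transporter of cortical excitatory neurons, at 1137 to 1289 CPM. Markers of choroid plexus summed to 9.67 to 31.9 CPM over 8 genes and those of leukocytes to 3.70 to 4.68 CPM over 7 genes.

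Of the 37 genes, 32 were expressed highly enough to be tested, and 12 of these were called, 6 higher and 6 lower in the cKO cortex. A gene was called when its adjusted p-value, from limma across all 14625 genes tested with Benjamini-Hochberg adjustment, was under 0.05 and its log2 fold change was beyond 0.3 in either direction. Over all genes tested, 13.7% were called, 5.88% higher and 7.77% lower. The higher genes were *Itga11*, *Itga8*, *Lamb1*, *Itgb4*, *Itga7* and *Lama2*, and the lower ones described here were *Lamb3*, *Itgav*, *Itgb3*, *Itgb8* and *Itga3*. The median log2 fold change of the 32 genes was 0.00 and that of all genes tested was 0.01, while the median size regardless of sign was 0.32 against 0.13 for all genes. The median SE was also larger, at 0.129 against 0.094 for all genes. In whole tissue, fewer cells of a type and less RNA per cell cannot be told apart. For 18 of the 32 genes the values of the genotypes did not overlap, against 33.8% of all genes tested.

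**Figure D1:**
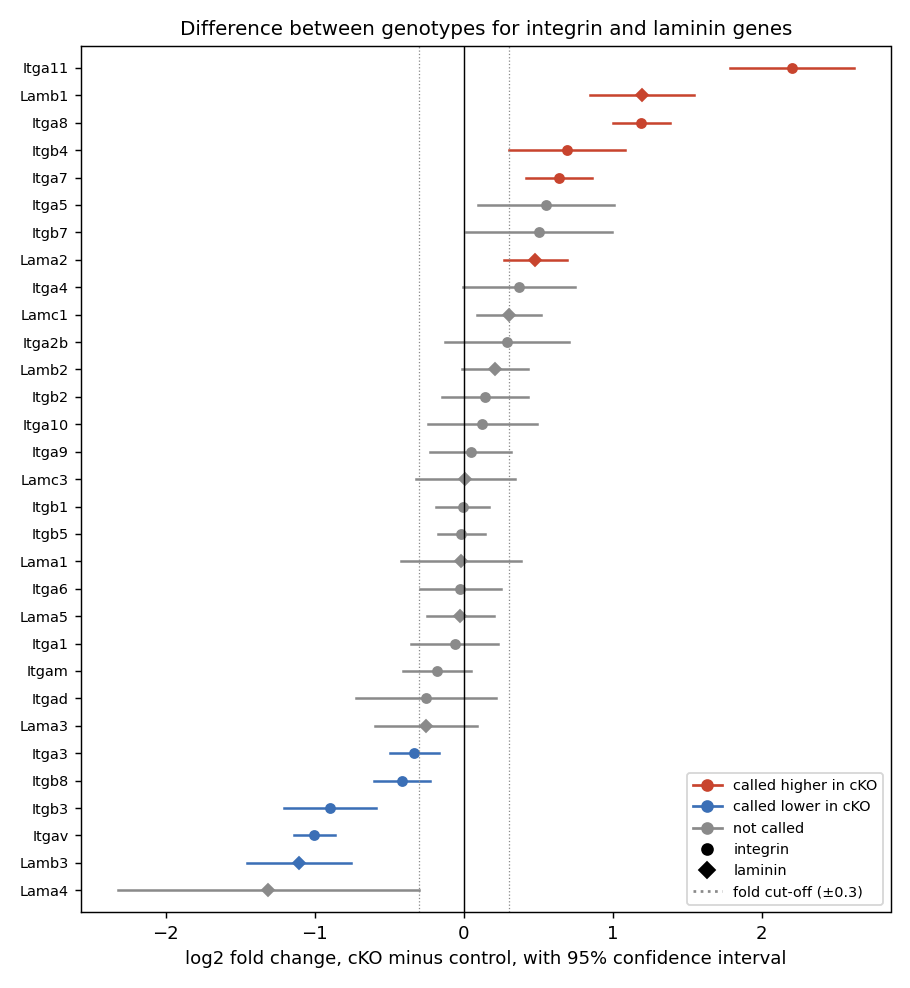
Log2 fold change (cKO minus control, x axis) of 31 of the integrin and laminin genes tested, with 95% confidence intervals from limma, for 3 mice per genotype. Circles are integrins and diamonds laminins, and color marks the call. *Itga11* lies farthest to the right at 2.20, and *Lama4* farthest to the left at -1.31 with the widest interval and no call.

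The sequence just upstream of the annotated exons is shown for *Itgav*, *Itga11*, *Lamb1* and *Lamb3*, which were among the most changed genes with a promoter entry in the RefSeq table of the mouse genome, since members that moved together or apart can be compared there. Entries were found for 23 of the 37 genes, each of 250 bases before a transcript start, and every one matched a single place on its chromosome in NCBIM37 (mm9), the build used here. Bases inside annotated exons were left off. Capitals mark CCAAT and GGGCGG or its reverse complement, motifs searched on both strands as were TATAAA, the AP-1 motif TGANTCA and the MEF2 consensus. The window of *Itga8* lies in an exon of an antisense transcript and is not shown.
*Itgav*, chr2:83564304-83564553, plus strand: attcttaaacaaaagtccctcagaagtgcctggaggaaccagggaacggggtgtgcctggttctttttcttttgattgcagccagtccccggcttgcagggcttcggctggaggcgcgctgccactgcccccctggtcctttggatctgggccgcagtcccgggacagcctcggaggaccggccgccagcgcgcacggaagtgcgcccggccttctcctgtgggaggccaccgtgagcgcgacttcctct
*Itga11*, chr9:62525412-62525632, plus strand: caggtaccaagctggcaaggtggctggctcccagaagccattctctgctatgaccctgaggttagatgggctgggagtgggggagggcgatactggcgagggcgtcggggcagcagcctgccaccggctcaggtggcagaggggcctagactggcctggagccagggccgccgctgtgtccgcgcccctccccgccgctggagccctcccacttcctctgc
*Lamb1*, chr12:31949908-31950098, plus strand: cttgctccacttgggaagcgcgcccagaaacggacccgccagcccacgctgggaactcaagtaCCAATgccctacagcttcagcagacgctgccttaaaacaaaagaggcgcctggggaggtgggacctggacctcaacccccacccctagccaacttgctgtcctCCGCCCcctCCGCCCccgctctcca
*Lamb3*, chr1:195127938-195128150, plus strand: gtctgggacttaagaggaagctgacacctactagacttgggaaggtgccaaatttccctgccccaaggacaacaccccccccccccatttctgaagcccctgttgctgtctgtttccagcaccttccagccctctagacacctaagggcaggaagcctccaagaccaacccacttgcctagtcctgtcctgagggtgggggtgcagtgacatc
*Lamb1* held 1 CCAAT and 2 GC boxes, and the other 3 windows held none of the motifs. Among all 32851 promoter windows, CCAAT was in 33.8%, GGGCGG in 32.7%, TATAAA in 12.4%, TGANTCA in 6.75% and the MEF2 consensus in 2.92%. Of the 26 windows of integrin and laminin genes, 4 held CCAAT, 9 held GGGCGG, 1 held TGANTCA and none held TATAAA. The MEF2 consensus occurred in 1 of them, upstream of *Itga10*, whose transcript was not called. Over the full 250 bases, the windows of *Itgav*, *Itga11*, *Lamb1* and *Lamb3* were 64.4%, 68.4%, 62.0% and 58.8% G and C. Over all windows the median was 52.4% and the highest decile began at 69.2%.

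Levels of different genes were compared per kilobase of annotated exon (CPM per kb). *Itgav*, which encodes the alphav chain that binds RGD motifs in vitronectin, fibronectin and latent TGF-beta, had the highest per-length level of the alpha chains in both genotypes, at 17.8 ± 1.01 CPM per kb in controls and 8.87 ± 0.303 CPM per kb in cKO mice (SD, n = 3). It made up 46.1% ± 2.08 of the summed per-length level of the 18 alpha genes in controls and 25.7% ± 1.14 in cKO mice. In controls *Itga3*, *Itga7*, *Itgam* and *Itga6* followed without overlap between neighbors. In cKO mice the order was *Itgav*, *Itga7*, *Itga3*, *Itga8* and *Itgam*, again without overlap between neighbors. Thus *Itga7* and *Itga3* changed places. *Itga8* moved to rank 4 from rank 6, where its control values overlapped those of the next gene, *Itga4*. Among the beta chains, *Itgb1* and *Itgb5* were the highest in both genotypes, and *Itgb8* and *Itgb4* exchanged the third and the fourth rank.

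**Figure D2:**
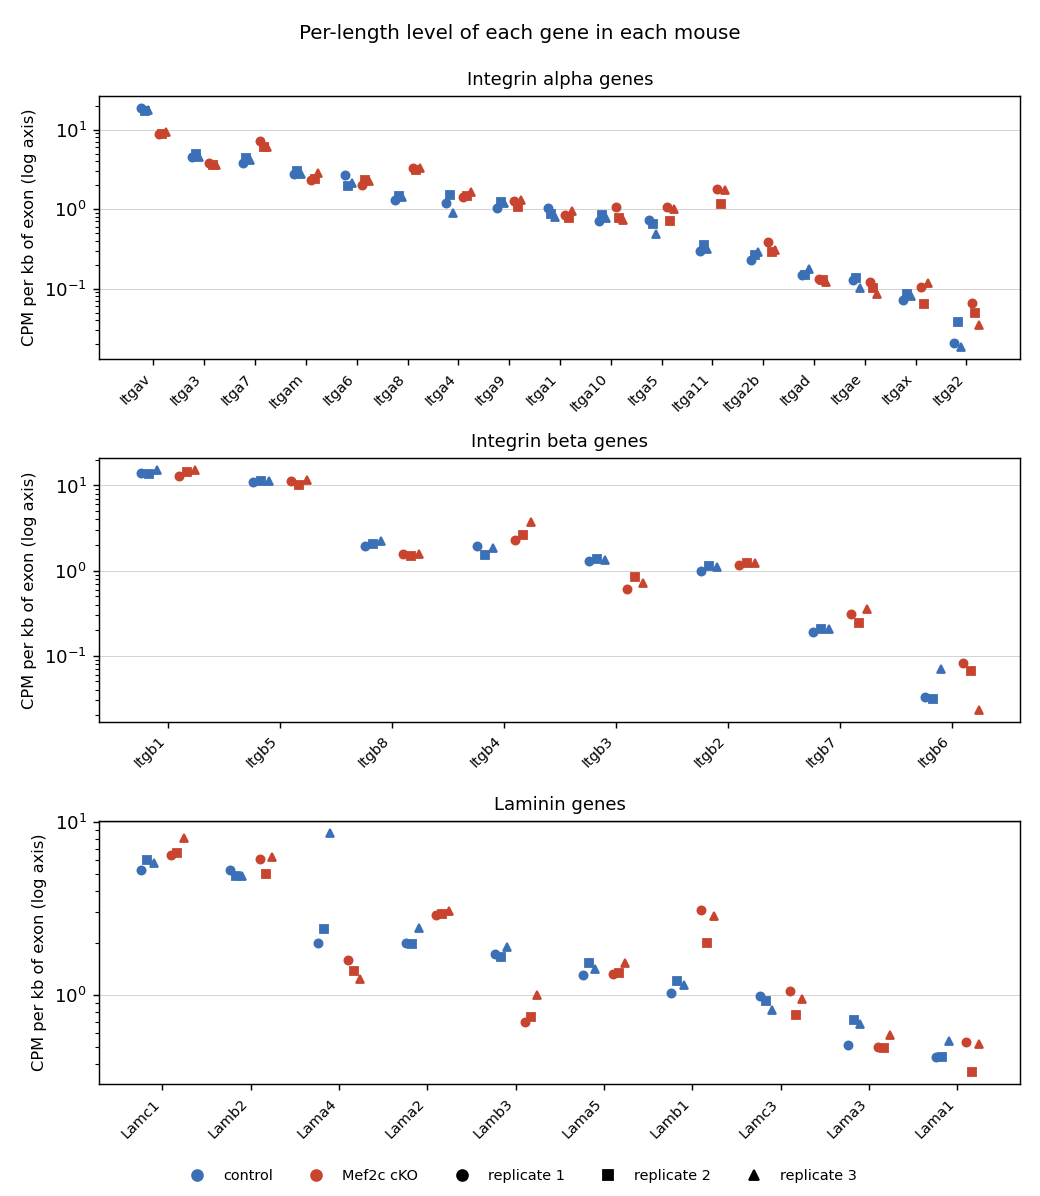
Per-length level (CPM per kb of annotated exon, log axis) of the integrin alpha, integrin beta and laminin genes described here that had reads, in each of the 3 control (blue) and 3 cKO (red) mice, ordered by the control mean. *Itgav* stands above all other alpha genes in both genotypes, and the third control mouse stands apart for *Lama4*.

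Of the RGD-binding alpha chains, *Itgav* was lower and *Itga8* higher in the cKO cortex. *Itgav* was at 203.5, 182.3 and 188.5 CPM in the 3 controls and at 93.5, 93.4 and 99.1 CPM in the 3 cKO mice. The gene (NCBIM37, chr2:83564554-83647073) had groups far apart, the control mean being 2.01 times the cKO mean, with a log2 fold change of -1.004 ± 0.061 (SE) and an adjusted p of 9.715e-06 in limma. In 4 of the 6 mice a single length fitted its value, and in the others the count was set by the place of the gene in the repeated lengths. *Itga8* (chr2:12028259-12223547), whose chain pairs with beta1 and binds nephronectin, fibronectin and tenascin, was at 9.56, 10.7 and 10.2 CPM in controls and at 23.8, 22.7 and 23.6 CPM in cKO mice. The cKO mice lay close together, with a mean 2.30 times that of the controls (log2 fold change 1.19 ± 0.08, adjusted p = 2.032e-05 in limma). The per-length ratio of *Itga8* to *Itgav* was 0.0788 ± 0.00880 in controls and 0.362 ± 0.0121 in cKO mice (SD, n = 3). *Itga5*, the alpha chain of the fibronectin receptor, was at 2.15 to 3.18 CPM in controls and 3.11 to 4.70 CPM in cKO mice. Its log2 fold change of 0.55 (95% CI 0.09 to 1.01, adjusted p = 0.105 in limma) did not pass, and without cKO replicate 2 it was 0.73 with an adjusted p of 0.0378. *Itga2b*, the platelet chain that pairs with beta3, was at 1.24 to 1.55 CPM and 1.55 to 2.08 CPM and was not called.

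Of the alpha chains that bind laminin, *Itga7* was higher and *Itga3* lower, while *Itga6* showed no difference beyond its spread. *Itga7* (chr10:128370869-128395333), the main laminin receptor chain of muscle, was at 16.1, 18.6 and 17.9 CPM in controls and at 30.8, 25.5 and 25.8 CPM in cKO mice. The groups did not overlap (log2 fold change 0.64 ± 0.10 SE, adjusted p = 0.00201 in limma). *Itga3* (chr11:94905788-94938115), a receptor chain for laminins with the alpha5 or alpha3 chain that also acts in cortical neuron migration, was at 25.8, 28.0 and 25.9 CPM in controls and at 21.9, 20.8 and 20.6 CPM in cKO mice. This was a small fall, by 0.33 on the log2 scale (adjusted p = 0.0147 in limma), and without control replicate 2 it was 0.29 and was not called (adjusted p = 0.0616). *Itga6* was at 24.1, 17.6 and 19.1 CPM in controls and at 18.2, 20.9 and 20.3 CPM in cKO mice, and the groups overlapped (log2 fold change -0.02, 95% CI -0.30 to 0.25).

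Among the collagen-binding alpha chains, *Itga11* (chr9:62525633-62631789) had the largest change of all 32 genes tested. Its product pairs with beta1, binds fibrillar collagen and is known from mesenchymal cells. It was at 1.53, 1.82 and 1.61 CPM in controls and at 9.28, 6.00 and 8.98 CPM in cKO mice. The lowest cKO mouse was over every control, with a ratio of means of 4.89 and a log2 fold change of 2.20 (95% CI 1.78 to 2.62, adjusted p = 6.078e-05 in limma). Its per-length level rose from the twelfth to the seventh rank of the alpha genes. *Itga1* and *Itga10*, the other collagen-binding chains tested, had log2 fold changes of -0.06 and 0.13 with overlapping groups. The reads of *Itga10* are uncertain, since its exons overlap other annotated exons on the same strand.

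The alpha chains of the alpha4 family and of leukocytes were not called. *Itga4* and *Itga9*, which bind fibronectin and VCAM1 or tenascin, had log2 fold changes of 0.37 and 0.05. For *Itga4* the range was 12.3 to 20.8 CPM in controls and 19.6 to 22.9 CPM in cKO mice, and its call turned on single controls. Without control replicate 2, its highest control, the log2 fold change was 0.55 and the gene was called (adjusted p = 0.0404 in limma), and without control replicate 3, its lowest, it was 0.17 (adjusted p = 0.457). All its counts but that of control replicate 2 had a single fitting gene length. Keeping only such counts therefore left out the same mouse for this gene, and is not a separate check. The log2 fold change was the same 0.55 (adjusted p = 0.0324 in limma). *Itgam*, which microglia express as CD11b, was at 17.9, 19.2 and 17.5 CPM in controls and at 14.8, 15.1 and 18.3 CPM in cKO mice. Its groups overlapped (log2 fold change -0.18, 95% CI -0.41 to 0.05), and none of 10 microglial markers was called in limma (3 at an unadjusted p under 0.05). *Itgad* stayed under 1 CPM in every mouse.

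Of the beta chains that pair with alphav, *Itgb3* and *Itgb8* were lower, and *Itgb1* and *Itgb5* were not called. *Itgb3* (chr11:104469370-104531790), which with alphav forms the vitronectin receptor and with *Itga2b* the platelet fibrinogen receptor, was at 7.65, 8.08 and 7.76 CPM in controls and at 3.51, 4.86 and 4.18 CPM in cKO mice. It fell by 0.90 on the log2 scale (SE 0.14, adjusted p = 0.00187 in limma), with no overlap. *Itgb8* (chr12:120396495-120477275), the partner that presents latent TGF-beta for activation, was at 21.6, 22.6 and 24.8 CPM in controls and at 17.5, 16.5 and 17.6 CPM in cKO mice. Its decrease was smaller (log2 fold change -0.42 ± 0.08 SE, adjusted p = 0.00810 in limma) but again every cKO mouse was under every control. *Itgb5*, another alphav partner, was at 37.2, 37.8 and 37.8 CPM in controls and at 38.2, 34.3 and 39.3 CPM in cKO mice. For this gene the 95% interval of the log2 fold change ran from -0.18 to 0.15. Per length, the ratio of *Itgav* to *Itgb5* was 1.59 ± 0.107 in controls and 0.802 ± 0.0444 in cKO mice, and the ratio of *Itgav* to *Itgb8* was 8.61 ± 0.973 and 5.71 ± 0.176 (SD, n = 3).

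*Itgb1*, the beta chain shared by most alpha chains described above, was at 57.3, 55.1 and 61.8 CPM in controls and at 52.4, 59.6 and 61.5 CPM in cKO mice. The groups overlapped, and the 95% interval of the log2 fold change ran from -0.18 to 0.17. *Itgb4* (chr11:115836023-115869726), which pairs with alpha6 alone and binds laminin, was at 13.5, 10.6 and 12.8 CPM in controls and at 16.1, 18.4 and 26.3 CPM in cKO mice. The third cKO mouse was the highest, and the call was the weakest among the 12 (log2 fold change 0.69 ± 0.17 SE, adjusted p = 0.0247 in limma). Without control replicate 2 the adjusted p was 0.0883 and without control replicate 3 it was 0.0561, so the call rests on these mice. *Itgb7* had a log2 fold change of 0.51 at under 1 CPM (adjusted p = 0.163) and *Itgb2*, the leukocyte and microglial chain, of 0.14, and neither was called although the groups of both did not overlap.

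**Figure D3:**
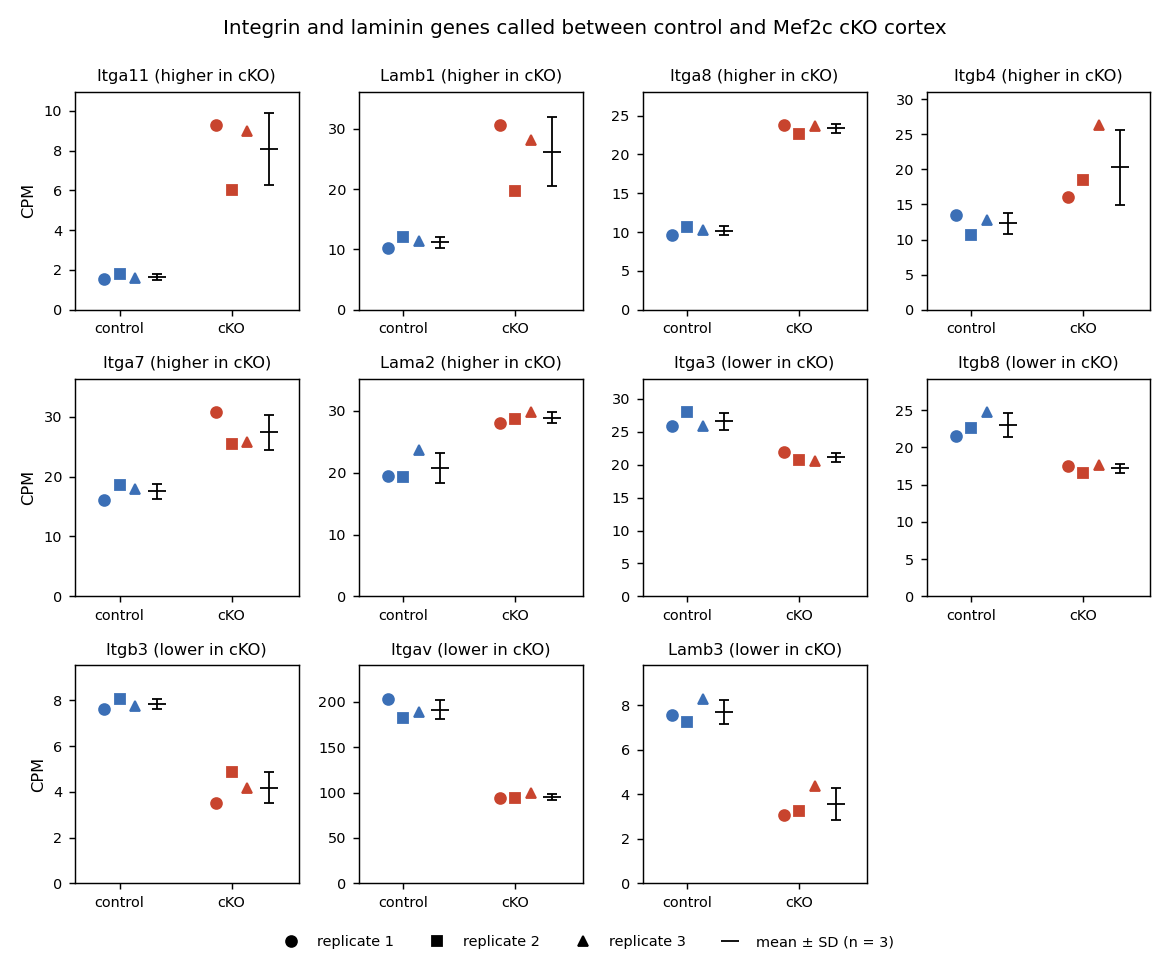
CPM (y axis, from 0, with its own scale in each panel) of 11 of the called integrin and laminin genes in 3 control (blue) and 3 cKO (red) mice, with mean ± SD. The genotypes do not overlap in any panel; *Itga11* and *Lamb1* are lowest in replicate 2 among the cKO mice and *Itgb4* is highest in replicate 3.

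Among the laminin alpha chains, *Lama2* (chr10:26701094-27336748) alone was called. Its product is the heavy chain of the laminin of muscle, peripheral nerve and brain vessels, and its loss causes a muscular dystrophy. It was at 19.4, 19.3 and 23.6 CPM in controls and at 28.1, 28.7 and 29.8 CPM in cKO mice. The increase was uniform in the cKO mice (log2 fold change 0.48 ± 0.09 SE, adjusted p = 0.00709 in limma), and with the 12-week mice alone it was 0.45 with an adjusted p of 0.0568. *Lama4*, the alpha chain of endothelial basement membrane, was at 24.2, 29.2 and 104.6 CPM in controls and at 19.2, 16.6 and 15 CPM in cKO mice. Every cKO mouse was under every control, and the third control was far above the others. With all mice the log2 fold change was -1.31 (95% CI -2.32 to -0.30, adjusted p = 0.0829 in limma), and without control replicate 3 it was -0.65 with an adjusted p of 0.0144, which passes. Without control replicate 1 it was -1.71 (adjusted p = 0.0372). *Lama1*, *Lama3* and *Lama5* had log2 fold changes of -0.02, -0.25 and -0.02 with overlapping groups.

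Of the 3 laminin beta chains, *Lamb1* was higher and *Lamb3* lower in the cKO cortex. *Lamb1* (chr12:31950099-32014509), the beta chain of most vascular and pial laminins, was at 10.2, 12.0 and 11.4 CPM in controls and at 30.6, 19.8 and 28.3 CPM in cKO mice. The lowest cKO mouse was above all controls, and the log2 fold change was 1.20 ± 0.15 (SE, adjusted p = 0.000703 in limma). *Lamb3* (chr1:195128151-195170072), the beta chain of the epithelial laminin-332, was at 7.56, 7.25 and 8.30 CPM in controls and at 3.05, 3.26 and 4.38 CPM in cKO mice, a fall by 1.11 on the log2 scale (SE 0.15, adjusted p = 0.00109 in limma). *Lamb2*, found at synaptic and vascular basement membranes, was at 29.6, 27.4 and 27.3 CPM in controls and at 34.5, 28.0 and 35.3 CPM in cKO mice. It was not called (log2 fold change 0.21, adjusted p = 0.199), and without cKO replicate 2 the log2 fold change was 0.31 with an adjusted p of 0.0367. Of the summed per-length level of the 3 beta genes, *Lamb2* made up 63.3% ± 2.11 in controls and 62.8% ± 1.49 in cKO mice, whereas *Lamb1* went from 14.3% ± 1.38 to 28.4% ± 2.65 and *Lamb3* from 22.4% ± 1.495 to 8.88% ± 1.59 (SD, n = 3).

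Of the gamma chains, *Lamc1* (chr1:155066052-155179916), which is part of most laminins, was at 43.7, 49.5 and 47.8 CPM in controls and at 53.2, 54.5 and 67.1 CPM in cKO mice. The groups did not overlap, but the gene missed the threshold (log2 fold change 0.30, adjusted p = 0.0643 in limma). *Lamc3* had a log2 fold change of 0.01 with overlapping groups.

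Grouped by the trimers that the chains are known to form, *Lama2* and *Lamb1*, chains of laminin-211, were called higher, and *Lamc1*, the other chain of this trimer, was the gene just under the threshold. The set was put together after the values were known and is given as a description. *Lamb1* and *Lamc1* are also part of other laminins, and no alpha chain other than *Lama2* was called. *Lama1*, *Lama3* and *Lama5* had log2 fold changes of -0.02, -0.25 and -0.02. *Lama4* was lower in every cKO mouse than in every control.

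Of 64 ligands, other laminin receptors and intracellular partners listed for these families, 63 were tested, and 12 were called higher and 7 lower. The shares over all genes tested were 5.88% higher and 7.77% lower, 13.7% in either direction. The list of matrix ligands, which also holds adhesion molecules and TGF-beta isoforms, held the largest change. *Npnt*, which encodes nephronectin, the ligand of the alpha8 beta1 integrin, was at 29.6, 29.1 and 27.7 CPM in controls and at 4.40, 3.52 and 4.40 CPM in cKO mice. This was a fall by 2.79 on the log2 scale (adjusted p = 1.758e-06 in limma), in the same tissue in which *Itga8* was higher. The other 5 called genes of this list were higher in the cKO mice. *Tnc*, the matrix protein tenascin-C, had a log2 fold change of 1.26, and *Tgfb2*, a TGF-beta isoform, of 1.05, from a mean of 7.38 to 15.4 CPM. *Spp1*, osteopontin, had 0.62, *Icam5*, the dendritic adhesion molecule of telencephalic neurons, 0.45, and *Col4a2*, a collagen chain of basement membranes, 0.30, each with an adjusted p under the threshold (0.0195, 0.0421 and 0.0229 in limma).

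**Figure D4:**
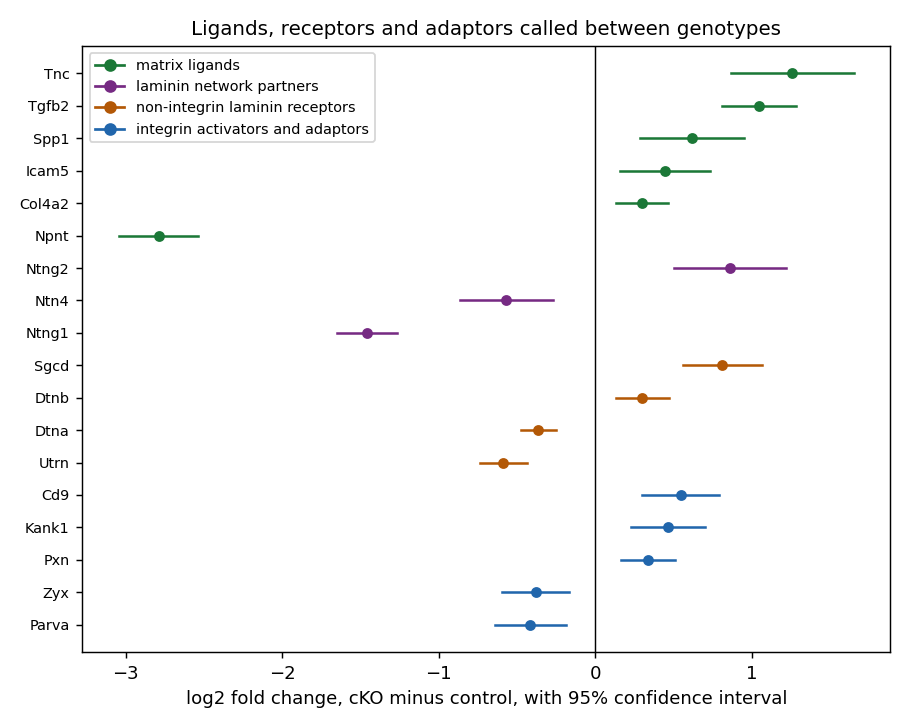
Log2 fold change (cKO minus control, x axis) with 95% confidence intervals from limma for 18 of the 19 called genes among 64 listed ligands, laminin partners, other laminin receptors and integrin adaptors, for 3 mice per genotype. *Npnt* has the largest change, at -2.79, and *Tnc* the largest increase, at 1.26.

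Among 8 genes of the laminin and netrin network, *Ntng1* and *Ntn4* were lower and *Ntng2* higher. *Ntng1* and *Ntng2* encode netrin-G proteins, membrane-anchored relatives of the laminin short arms at axons, and *Ntng1* was at 30.0, 32.4 and 29.4 CPM in controls and at 11.3, 11.6 and 10.3 CPM in cKO mice. *Ntng2* was at 33.7, 57.6 and 43.7 CPM in controls and at 83.3, 77.0 and 79.7 CPM in cKO mice. The log2 fold changes were -1.46 and 0.86 (adjusted p = 7.946e-06 and 0.00528 in limma), and that of *Ntn4*, a secreted netrin that binds laminin gamma chains, was -0.57 (adjusted p = 0.0179). Of 11 genes of the dystroglycan complex and other laminin receptors, 5 were called. *Sgcd* and *Dtnb* were higher, with log2 fold changes of 0.81 and 0.30, and *Utrn* and *Dtna* lower, with -0.59 and -0.36. *Sgcd* is a sarcoglycan, *Utrn* the relative of dystrophin, and *Dtna* and *Dtnb* the dystrobrevins of glia and neurons. Of 23 tested activators and adaptors, *Cd9*, a tetraspanin, *Kank1* and *Pxn*, paxillin, were higher, with log2 fold changes of 0.54, 0.47 and 0.34, and *Parva*, which links the integrin-linked kinase to actin, and *Zyx*, zyxin, were lower, with -0.41 and -0.38. Of the main activators of integrins, *Tln1*, *Tln2* and *Fermt2* had log2 fold changes of 0.05, -0.09 and -0.09 and none was called.

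Markers of other cells were read beside these results. For scale, 13.7% of the 14625 genes tested were called, and 4165 of the 14625 had an unadjusted p under 0.05 in limma. Over 10 meningeal fibroblast markers the summed level was 74.0 to 80.2 CPM in controls and 150.9, 69.7 and 132.8 CPM in cKO replicates 1, 2 and 3, and 1 of the 10, *Dcn*, was called. *Dcn* was at 7.88, 7.17 and 6.15 CPM in controls and at 50.9, 12.7 and 33.5 CPM in cKO mice, so cKO replicate 2 was the lowest of the cKO mice for *Dcn*, for *Itga11* and for *Lamb1*. In that mouse the summed meningeal markers were under those of every control. *Dcn*, *Itga11* and *Lamb1* were each over every control in it, the last 2 at 6.00 and 19.8 CPM. Without cKO replicate 2 the log2 fold changes of *Itga11* and *Lamb1* were 2.40 and 1.39. Summed striatal markers were 175.0 to 248.0 CPM in controls and 359.1, 164.7 and 309.9 CPM in cKO replicates 1, 2 and 3. The part of meningeal or striatal RNA in these and the other values was not tested.

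Markers of endothelial and mural cells, which make much of the vascular laminin, held no called gene in limma among the 10 and 9 tested (1 and 2 at an unadjusted p under 0.05). Their sums were 285.8 to 323.3 CPM and 116.0 to 118.4 CPM in controls and 273.5 to 291.7 CPM and 109.4 to 127.4 CPM in cKO mice. Of 10 astrocyte markers *Gfap* and *Aqp4* were called higher and *Aldh1l1* lower (8 at an unadjusted p under 0.05), with sums of 4907 to 5212 CPM in controls and 4341 to 4609 CPM in cKO mice. Of 10 oligodendrocyte markers 2 were called higher and all 10 had an unadjusted p under 0.05, with a median log2 fold change of 0.53. Their sums were 3385 to 5557 CPM in controls and 5480 to 7068 CPM in cKO mice. Of 6 oligodendrocyte precursor markers 2 were called higher (4 at an unadjusted p under 0.05), and the sums did not overlap, at 150.3 to 164.0 CPM in controls and 171.8 to 187.0 CPM in cKO mice. Of 10 pyramidal neuron markers 4 were called higher and 4 lower, the latter including *Cux2* and *Rorb* of the upper layers, at 89.5 to 100.3 and 25.4 to 27.1 CPM in controls and 26.4 to 31.4 and 6.99 to 8.49 CPM in cKO mice. Among 10 interneuron markers, *Sst* and *Npy* were called higher and *Pvalb* lower (5 at an unadjusted p under 0.05 in limma). The interneuron sums overlapped, at 771.3 to 869.1 CPM in controls and 818.5 to 888.9 CPM in cKO mice. The part of these marker differences in the integrin and laminin values was not tested.

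The 5 genes not tested were *Itga2*, *Itgae*, *Itgal*, *Itgax* and *Itgb6*. *Itgal* had no read in any mouse, which allows a level of up to 0.0554 to 0.155 CPM by counting error alone, 3 reads being the limit that a count of 0 allows. *Itga2* had 3 to 9 reads per mouse, *Itgax* 5 to 26, *Itgb6* 8 to 26 and *Itgae* 9 to 31, all under 0.63 CPM. Of the 20 tested genes that were not called, 14 had overlapping groups, with log2 fold changes from -0.25 to 0.55. The other 6, *Itga2b*, *Itgb2*, *Itgb7*, *Lamc1*, *Itgad* and *Lama4*, did not overlap, the first 4 higher and the last 2 lower in cKO mice. For *Itga2b* the groups all but met, since the highest control and the lowest cKO mouse were both at 1.552 CPM after rounding.

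The calls depend on the recovered counts. On the deposited RPKM values, limma with the same cut-offs passed 11 of the 37 genes through the filter and called none of them, with 1 at an unadjusted p under 0.05. The lengths behind those values differ between mice, for *Itgav* for example from 930 to 18622 bases. Reads from antisense transcripts cannot be told apart where the counting was not set to strand, which the sources used here do not state, and such transcripts cover 5.90% of the exon bases of *Itgav*, 5.07% of *Itga8* and 7.66% of *Itgb4*.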

How the data were processed

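The authors made polyA-selected directional libraries of cortical RNA, 1 per mouse, from 3 mice of each genotype. Per the labels and the study's methods, reads were aligned to mm9 with TopHat and Bowtie and counted with HTSeq, whose strand setting is not given in the sources used here. The deposited values are RPKM, 1 table per mouse, computed by the authors from these counts. Genotypes, replicate numbers and ages were taken from the sample labels.

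In each table the RPKM was found to use a short series of whole-number lengths repeated down the genes in order of gene ID, unrelated to gene length (*Lama4*: 6654, 3511, 3814, 3873, 9844 and 17629 bases in the 6 mice). Lengths, library totals and counts were recovered from the values, for 99.88% to 99.98% of the values above 0, and the counts summed to 99.99% of the totals. All 36 members with reads were recovered in each mouse. A count with several fitting lengths could be wrong. Counts were divided by the total to give CPM, and log2(CPM + 0.1) was fitted with limma 3.58.1 (lmFit, eBayes with a trend) in R 4.3.3, for genes over 0.5 CPM in every mouse of a genotype and with at least 2 counts in each genotype. A pseudocount understates the change of low genes. Cut-offs were an adjusted p of 0.05 and a log2 fold change of 0.3. Because the deposited unit is RPKM, no count model was used. The 92 rows without a name were left out. Both steps were run on simulated data. The tables made for the recovery followed the same scheme of repeated lengths, so they cannot check that the deposited tables do. Counts made for the fit had the same spread setting for every gene and no outlying mouse.

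The members, the partner and marker lists and the tests were chosen with earlier results of these data known. Members were reported, those called or among the 5 highest per length in their family with every mouse, and called partners were named. A few genes are counted in the totals but not reported here. Coordinates and exon lengths are from gencode vM1 on NCBIM37, and promoter sequences from RefSeq (GRCm38.p6), placed on NCBIM37 by exact match. Python 3.11.15, numpy 2.4.6, pandas 2.3.3 and matplotlib 3.10.9 were used. Alternatives were the deposited RPKM values, pseudocounts of 0.5 and 1, other filters, median-of-ratios scaling, no trend, a replicate block, age as a covariate, 12-week mice alone, counts with a single fitting length, no fold cut-off and each mouse left out.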

Additional observations from a re-analysis of the deposited data

How the results depend on the processing

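On the deposited RPKM values, limma called 14 of 7974 genes (9 higher and 5 lower, 677 at an unadjusted p under 0.05) and 0 of the integrin and laminin genes in either direction, with 0 whose groups did not overlap among 11 tested and 1 at an unadjusted p under 0.05. Log2 fold changes that turned there were those of *Itga3* (1.34), *Itga6* (0.55), *Itga7* (-0.67), *Itgb5* (0.30) and *Lama2* (-1.27), none of them called. Under the other alternatives 11 to 14 members were called, counting each mouse left out, and all 12 called genes kept their direction wherever they were tested. *Itgb3*, *Itga8*, *Itga11*, *Lamb1*, *Lamb3*, *Itgb8* and *Itga7* were called under all of these, and so was *Itgav*, which could not be tested with single fitting lengths alone. *Itga3*, *Itgb4* and *Lama2* each lost the call under at least 1, *Itgb4* also without the variance trend (adjusted p = 0.0647 in limma), where *Itgb7* gained one (0.0448). Over all genes the count called ranged from 1474 to 2381.

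With 12-week mice alone, the signs turned for *Itga1* (0.045), *Itga6* (0.17), *Itga9* (-0.060), *Itga10* (-0.098), *Itgb1* (0.052) and *Lamc3* (-0.029), and with single fitting lengths for *Lamc3* (-0.090), all genes with no call. Leaving out each mouse gave ranges across 0 for *Itga1* (-0.13 to 0.038), *Itga6* (-0.12 to 0.11), *Itga9* (-0.028 to 0.14), *Itga10* (-0.030 to 0.22), *Itgb1* (-0.054 to 0.061), *Itgb5* (-0.055 to 0.043), *Lama1* (-0.12 to 0.16), *Lama5* (-0.089 to 0.037) and *Lamc3* (-0.090 to 0.14).

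The study compared cKO mice with Cre-negative littermates, but the sample labels do not give which mice shared a litter. Whether the replicate numbers pair the mice is therefore not known. Deviations of mice with the same number from their group means correlated at -0.18, -0.11 and -0.08 over 14625 genes. With 3 mice per genotype these values cannot decide it. With the replicate block, 1695 genes and 11 members were called in limma, *Itga3* being lost with an adjusted p of 0.0518. With 3 mice per genotype and 19326365 reads in the shallowest library, a low gene is limited by its read count.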

Other observations

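Control replicate 3 was high for other genes beside *Lama4*. It was over 2-fold above both other controls in 7 of the genes tested at over 5 CPM, namely *Lama4*, *Slco2a1*, *Ttr*, *Lrrc17*, *Adgrg6*, *Tex14* and *Bc1-ps1*. *Slco2a1*, a prostaglandin transporter, was at 3.44, 3.93 and 29.7 CPM in the 3 controls and at 2.07 to 2.72 CPM in the cKO mice. *Ttr*, transthyretin, was at 6.20, 7.27 and 26.7 CPM in controls and 5.45 to 7.92 CPM in cKO mice. *Lrrc17* was at 618.8, 597.8 and 9229 CPM in controls and 391.1 to 702.0 CPM in cKO mice. Among the other libraries, the number of such genes was 0 to 3, and no integrin or laminin gene was among them. In the other direction, control replicate 3 was under 0.5 of both other controls in 0 genes, against 10 and 12 genes for control replicates 1 and 2 and 2, 21 and 23 genes for cKO replicates 1, 2 and 3, so over both directions it had fewer such genes than 4 of the other 5 libraries. The genes of control replicate 3 were found after the value of *Lama4* was seen, and no explanation was tested.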
